A study of Mus musculus with 18 samples.

Results

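The genes described here are 40 mouse genes of the unfolded protein response and the heat shock response, measured in naive CD4+ T cells whose LAT adaptor had been deleted or mutated. They were listed by name and then matched to array probes by RefSeq accession. The list was made with earlier results of these data known, so counts of members beside shares of all genes are descriptions. A probe was found for 38 of the 40, and all 38 were well above background on all 18 arrays and saturated on none. Dnajb11 and Pdia3 had no matching probe and have no value. The 38 comprise 23 of 25 listed genes of the endoplasmic reticulum (ER) and all 15 listed genes of the cytosol and mitochondria, among 31622 genes and unnamed sequences tested. Where a gene had several probes, which held for 21 members, the brightest on average was used.

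LAT is a membrane adaptor that is phosphorylated below the T cell receptor and gathers enzymes such as phospholipase C-gamma. The study asked what the weak signalling of resting T cells does for gene expression. RNA came from spleen CD4+ T cells sorted as CD44low, 1 mouse per single-colour Agilent array, from C57BL/6 mice given tamoxifen for 1 or 4 weeks. Each of the 6 groups held 3 mice. WT mice were titled ERCre- LAT f/-, LAT KO mice ERCre+ LAT f/-, and Y136F mice ERCre+ LAT f/m, where the remaining allele carries the Y136F change. The design text calls the mice CRE ER+ throughout, which differs from the titles of the WT arrays, so if the titles are right, Cre and LAT mutation cannot be told apart. All groups shared the tamoxifen, and the promoter that drives the Cre is not given in the sources used here.

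Cells meet unfolded protein in the ER with 3 sensors. IRE1 (Ern1) splices the Xbp1 transcript, ATF6 is released by cleavage, and a kinase that raises ATF4 slows translation, after which chaperones, disulfide isomerases and degradation genes are switched on. In the cytosol, unfolded protein frees HSF1, which switches on the HSP70, HSP90, HSP110 and HSP40 genes. In lymphocytes, Xbp1 is best known for building the secretory apparatus of plasma cells, and T cells also turn on ER and cytosolic chaperones when they are activated and start to grow.

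The promoters of the 2 arms differed in the motif letters they hold. The list of members and the motifs both come from what is known of these responses. A higher share among members is therefore a description and no independent result. RefSeq promoters (GRCm38.p6, 250 bases before to 50 after each start) were at hand for 33 members, 22 ER and 11 cytosolic or mitochondrial. The ER stress element, written as CCAAT, any 9 bases, then CCACG, was searched on both strands. It occurred in 8 of 22 ER members, in 0 of 11 cytosolic or mitochondrial members and in 0.137% of all 27025 genes with a promoter in the table. The 5 stretches printed here belong to ER members that the results turn on or that are archetypes of the response; capitals mark the CCAAT and CCACG blocks, read forward or as their reverse complements ATTGG and CGTGG.
Creld2, chr15:88819510-88819548, plus strand: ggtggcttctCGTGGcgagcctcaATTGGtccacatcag
Hspa5, chr2:34772015-34772053, plus strand: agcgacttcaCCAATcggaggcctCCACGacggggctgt
Hsp90b1, chr10:86705523-86705666, minus strand: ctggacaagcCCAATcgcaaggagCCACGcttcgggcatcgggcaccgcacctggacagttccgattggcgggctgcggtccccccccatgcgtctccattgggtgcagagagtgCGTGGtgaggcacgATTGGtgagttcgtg
Calr, chr8:84847065-84847103, minus strand: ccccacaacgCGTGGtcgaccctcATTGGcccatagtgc
Pdia6, chr12:17266481-17266519, plus strand: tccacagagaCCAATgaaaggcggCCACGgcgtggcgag
Each block pair lies before the gene's start, and Hsp90b1 holds 2 of them. The other ER members with a match were Canx, Dnajc3 and Syvn1. The second form of the element, ATTGG, any base, then CCACG, was found in Dnajb11 and Herpud1 and in 0.0444% of all genes.

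The heat shock element was searched on both strands as 3 alternating units of GAA and TTC with any 2 bases between them. It occurred in 4 of 11 cytosolic or mitochondrial members (Chordc1, Hspd1, Hspe1 and Hsph1), in 0 of 22 ER members and in 0.662% of all genes. Hspd1 and Hspe1, the mitochondrial HSP60 and HSP10 genes, sit head to head and share a stretch that is shown here from both strands, with the overlapping units in capitals.
Hspd1, chr1:55088049-55088086, minus strand: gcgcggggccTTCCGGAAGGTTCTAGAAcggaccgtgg
Hspe1, chr1:55088049-55088086, plus strand: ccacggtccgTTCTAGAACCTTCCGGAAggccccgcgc
A plain CCAAT box, which every ER stress element contains, was present in 19 of 22 ER members, in 4 of 11 cytosolic or mitochondrial members and in 41.1% of all genes. The unfolded protein response element core, TGACGTGG, was in none of the 33, against 0.714% of all genes. The amino acid response element core was in Herpud1 only, against 1.6% of all genes. A match is a run of letters in this window and not a shown binding site.

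Several facts of the arrays touch all results. The 75th percentile of the signal was 1124 to 1896 intensity units, and 84.25% to 97.87% of spots were well above background. LAT KO replicate 3 of 1 week had 7888 outlier spots against 952 or fewer on the others, so Atf6, Hspb1 and Bag3 have no value there, and Hspb1 has none in WT replicate 2 of 4 weeks. The labelled sex was female for every Y136F mouse, male for the WT and LAT KO mice of 4 weeks, and mixed (2 females and 1 male) in either of these groups at 1 week. Xist and Y-linked genes went against the label in LAT KO replicate 1 of 1 week, labelled female, and LAT KO replicate 2 of 4 weeks, labelled male. Lat averaged 3.19 ± 0.39 (SD, n = 3) in WT and 2.52 ± 0.29 (n = 2) in LAT KO at 1 week, and 3.59 ± 0.28 and 2.71 ± 0.42 (n = 3 each) at 4 weeks, on the log2 scale relative to each array's 75th percentile. It averaged 4.25 ± 0.07 and 4.07 ± 0.31 (n = 3 each) in Y136F at 1 and 4 weeks; whether its probe lies in the deleted part is not given in the sources used here. All levels below are on this scale, called scaled signal, and levels of different genes are not compared.

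The 2 arms parted in Y136F cells. For each array, the deviation of every member from its own mean over 18 arrays was averaged over the 23 ER and over the 15 cytosolic and mitochondrial members. At 4 weeks the ER mean was 0.33, 0.30 and 0.30 in Y136F replicates 1 to 3, against 0.06, -0.01 and -0.09 in WT and 0.09, -0.14 and 0.09 in LAT KO. The cytosolic mean was -0.19, -0.002 and -0.18 in Y136F, against 0.23, 0.29 and 0.36 in WT and 0.05, -0.04 and 0.21 in LAT KO. No other array had an ER mean as high as the lowest of the 4-week Y136F arrays. The ER minus the cytosolic mean was above 0 on all 6 Y136F arrays (0.08 to 0.52), below 0 on all 6 WT arrays (-0.44 to -0.12), and between -0.12 and 0.04 in LAT KO. These means are descriptions, since genes of an array are not replicates and the members were chosen with earlier results of these data known.

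**Figure D1:**
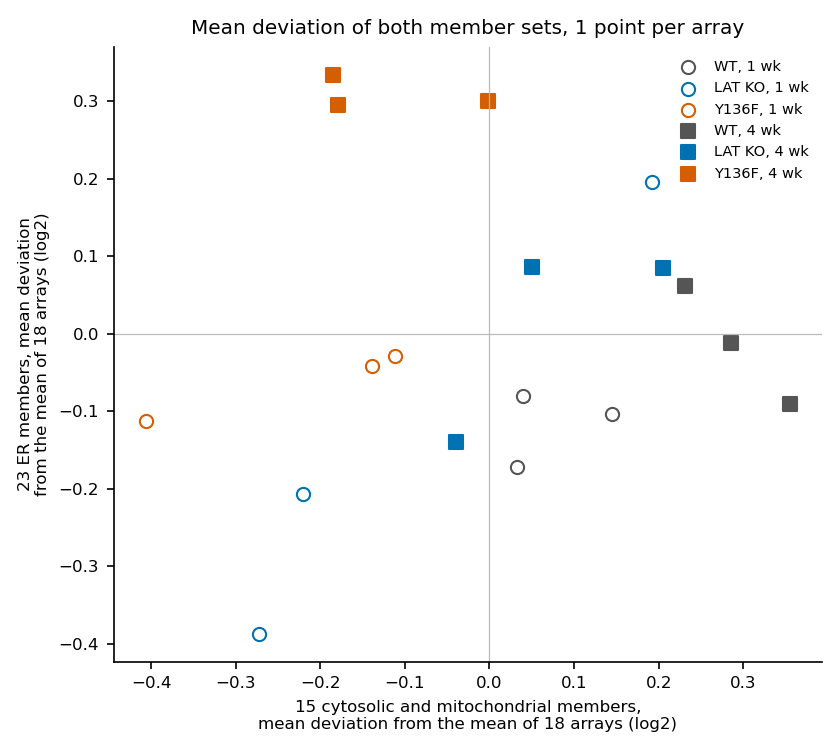
Mean deviation (log2) of the 23 ER members (vertical) and of the 15 cytosolic and mitochondrial members (horizontal), 1 point per array, coloured by genotype, open circles for 1 week and filled squares for 4 weeks. The 3 filled Y136F squares lie at the top with ER means of 0.30 to 0.33 and cytosolic means of -0.19 to -0.002, while the WT squares lie at the right with cytosolic means of 0.23 to 0.36.

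LAT KO replicate 1 of 1 week stood apart from its group in both arms. Its ER and cytosolic means were 0.20 and 0.19, against -0.21 and -0.22 in replicate 2 and -0.39 and -0.27 in replicate 3. LAT KO replicate 2 of 4 weeks had the lowest of both means in its group, at -0.14 and -0.04. These are the 2 arrays whose sex-linked genes went against their labels. Whether they were exchanged between the times cannot be told from the sources used here. Results for LAT KO follow the labels, and values without both arrays are given where calls change.

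**Figure D2:**
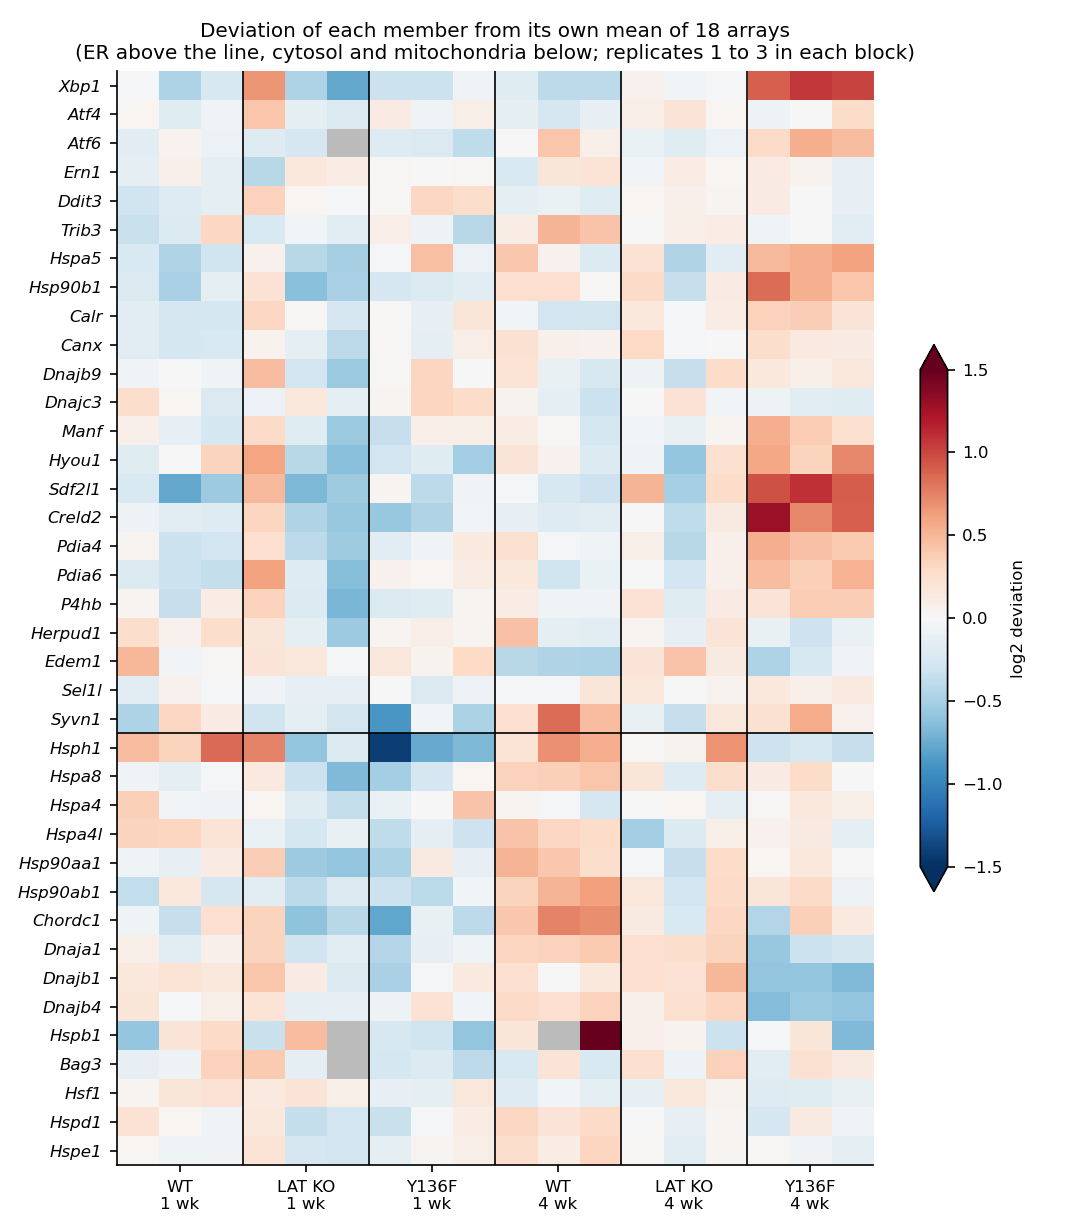
Deviation of each of the 38 members from its own mean over 18 arrays (log2, colour scale limited to 1.5 in either direction), arrays in columns by group, ER members above the line and cytosolic and mitochondrial members below; grey marks a missing value. In the 4-week Y136F columns Xbp1, Sdf2l1 and Creld2 are red and Dnaja1, Dnajb1 and Dnajb4 are blue.

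At 4 weeks, 3 ER members rose in Y136F cells relative to WT and none fell. They were Xbp1, the transcription factor of the IRE1 branch, Sdf2l1, an ER partner of the J-domain co-chaperones, and Creld2, a secreted and ER-resident disulfide-rich protein induced by ER stress. Over all 31552 genes and sequences tested, 2.48% rose and 0.916% fell in this comparison (3.39% in either direction), by limma with Benjamini-Hochberg adjustment over all of them at a threshold of 0.05.

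The scaled signal of Xbp1 was 1.99, 2.15 and 2.10 in Y136F at 4 weeks, against 0.91, 0.70 and 0.70 in WT and 1.16, 1.05 and 1.07 in LAT KO. At 1 week it was 0.77, 0.77 and 1.04 in Y136F, 1.08, 0.64 and 0.86 in WT and 1.76, 0.63 and 0.33 in LAT KO. Every 4-week Y136F array thus lay above all others, LAT KO replicate 1 of 1 week being the nearest. The 4-week difference of Y136F from WT was 1.31 ± 0.25 (SE), or 2.48-fold, with an adjusted p of 0.00486 in limma. Whether the array probe separates the spliced from the unspliced form is not given in the sources used here. The values therefore say nothing about splicing of Xbp1.

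Sdf2l1 stood at 3.74, 3.88 and 3.70 in Y136F at 4 weeks, against 2.77, 2.55 and 2.48 in WT and 3.30, 2.29 and 3.07 in LAT KO. The 1-week values were 2.83, 2.40 and 2.74 in Y136F, 2.56, 2.03 and 2.25 in WT, and 3.28, 2.12 and 2.26 in LAT KO. Again the 3 Y136F arrays of 4 weeks were the highest of the 18, while LAT KO arrays were spread widely at both times. The difference from WT was 1.18 ± 0.27 (2.26-fold, limma adjusted p 0.0196).

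Creld2 gave 2.75, 2.17 and 2.35 in Y136F at 4 weeks, 1.33, 1.26 and 1.30 in WT and 1.46, 1.08 and 1.59 in LAT KO. At 1 week the values were 0.89, 1.00 and 1.42 in Y136F, 1.38, 1.30 and 1.26 in WT and 1.77, 1.01 and 0.88 in LAT KO. The WT arrays were close together at both times and the 4-week Y136F arrays lay apart above them. The difference from WT was 1.13 ± 0.21 (2.19-fold, limma adjusted p 0.00497). Leaving out any single array kept the calls of Xbp1 and Creld2, whereas that of Sdf2l1 was lost (adjusted p 0.0578 to 0.0935) without WT replicate 2 or 3 or any of the Y136F replicates of 4 weeks.

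**Figure D3:**
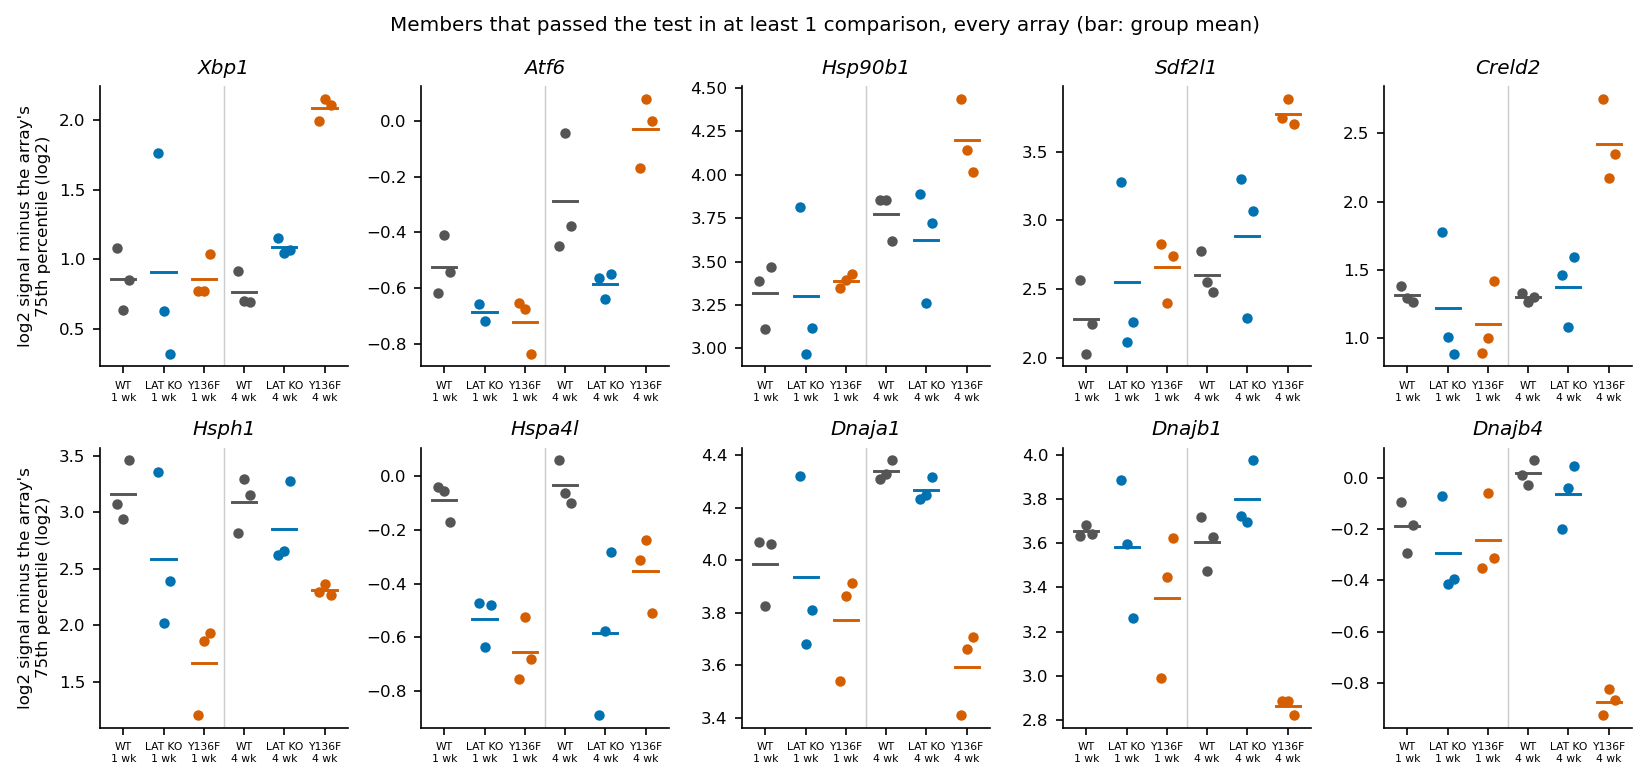
Scaled signal (log2 signal minus the array's 75th percentile) of the 10 members that passed the test in at least 1 comparison, 1 point per array and a bar for the group mean, with 1-week groups left and 4-week groups right of the grey line; each panel has its own axis. Xbp1, Sdf2l1 and Creld2 are highest and Dnaja1, Dnajb1 and Dnajb4 lowest in Y136F cells at 4 weeks, and Hsph1 is lowest in Y136F cells at 1 week (1.20 to 1.93).

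The other 20 measured ER members did not pass the test in this comparison, though most leaned the same way. Of the 23, 18 had a positive difference, with a median of 0.26 on the log2 scale, while 32.27% of all genes were positive with a median of -0.19. All 3 arrays of Y136F lay above all 3 of WT for 12 of the 23, against 9.35% of all genes, and below for 1 (Trib3), against 16.7%. At an unadjusted p under 0.05, 8 were higher and 1 lower, beside 16.26% of all genes in either direction.

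Of the 10 lumenal chaperones and co-chaperones, 9 had a positive difference, with a median of 0.45, and differences between roles were not tested. Calr (calreticulin, a lectin chaperone of glycoproteins) differed by 0.51 ± 0.15 with an adjusted p of 0.0729, and Hspa5 (BiP, the ER HSP70) by 0.46 ± 0.20 with 0.268. Hsp90b1 (GRP94, the ER HSP90) differed by 0.42 ± 0.20, and Hyou1 (an ER HSP110 that exchanges nucleotide on BiP) by 0.53 ± 0.26, with adjusted p-values of 0.316 and 0.328. All 3 Y136F arrays exceeded all WT arrays for each of these genes. The 3 measured disulfide isomerases were likewise higher without passing the test, Pdia6 by 0.52 ± 0.22, Pdia4 by 0.41 ± 0.19 and P4hb by 0.32 ± 0.20. Manf, a secreted ER stress protein, differed by 0.43 ± 0.19, while Canx (calnexin) and the co-chaperones Dnajb9 and Dnajc3 differed by 0.05, 0.19 and -0.002.

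The 4 members of ER-associated degradation, which recognise, draw out and ubiquitinate misfolded proteins, ran from -0.24 (Syvn1, the ubiquitin ligase HRD1) through -0.22 (Herpud1) and 0.08 (Sel1l, the HRD1 partner) to 0.19 (Edem1), and none passed; a second Syvn1 probe gave 0.62. Among the sensors, Ern1 differed by -0.04 ± 0.17, Atf6 by 0.26 ± 0.14 and Atf4 by 0.24 ± 0.15 (adjusted p 0.91, 0.357 and 0.443). Ddit3 (CHOP, a pro-death factor below ATF4) differed by 0.14 ± 0.13 and Trib3, a target of ATF4 and CHOP, by -0.42 ± 0.18, with adjusted p-values of 0.591 and 0.261.

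In the cytosol the direction was opposite: 3 members fell in Y136F cells at 4 weeks and none rose. These were Dnaja1, Dnajb1 and Dnajb4, which are all 3 of the HSP40 members listed, J-domain co-chaperones that deliver clients to HSP70 and start its ATPase. Dnajb4 was at -0.93, -0.82 and -0.87 in Y136F, against 0.01, -0.03 and 0.07 in WT and -0.20, -0.04 and 0.05 in LAT KO. At 1 week Dnajb4 was at -0.35, -0.06 and -0.31 in Y136F, -0.09, -0.29 and -0.18 in WT and -0.07, -0.41 and -0.40 in LAT KO. The 4-week Y136F arrays lay below all 15 others. Dnajb4 fell by 0.89 ± 0.13 on the log2 scale, a 1.86-fold difference with a limma adjusted p of 0.000964.

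Dnajb1 (HSP40 itself) was at 2.88, 2.88 and 2.82 in Y136F at 4 weeks, 3.72, 3.47 and 3.63 in WT and 3.73, 3.70 and 3.98 in LAT KO. At 1 week it was at 2.99, 3.45 and 3.63 in Y136F, 3.63, 3.69 and 3.64 in WT and 3.89, 3.60 and 3.26 in LAT KO. The 4-week Y136F values were the 3 lowest of the 18. Dnajb1 fell by 0.75 ± 0.17 (1.68-fold, limma adjusted p 0.0184).

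Dnaja1, which also helps to import proteins into mitochondria, was at 3.41, 3.66 and 3.71 in Y136F at 4 weeks. The WT arrays of that time gave 4.31, 4.33 and 4.38 and the LAT KO arrays 4.23, 4.25 and 4.32, so that LAT KO stayed near WT. At 1 week the values were 3.54, 3.86 and 3.91 in Y136F, 4.07, 3.83 and 4.06 in WT and 4.32, 3.68 and 3.81 in LAT KO. Dnaja1 fell by 0.74 ± 0.16 (1.68-fold, limma adjusted p 0.0134). Of these calls, that of Dnajb4 was kept without any single array. Dnaja1 was lost (adjusted p 0.0523 to 0.0748) without WT replicate 2 or 3 or Y136F replicate 1 of 4 weeks, and Dnajb1 (0.0564 to 0.082) without WT replicate 1 or 3 or any Y136F replicate of 4 weeks.

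The remaining 12 cytosolic and mitochondrial members did not pass. Of the 15, 2 had a positive and 13 a negative difference with a median of -0.33, where 32.27% of all genes were positive with a median of -0.19, and for 12 every Y136F array lay below every WT array, against 16.7% of all genes. Hspb1, with 2 WT arrays, was among these 12, while the share counts only genes measured on every array of both groups. At an unadjusted p under 0.05, 7 of the 15 were lower and none higher, beside 16.26% of all genes. The lowest differences among the members that did not pass belonged to Hspb1 (HSP27, a small heat shock protein), at -1.08 ± 0.38 with 2 WT arrays measured, Hsph1 (HSP110, which exchanges nucleotide on HSP70), at -0.78 ± 0.28, and Chordc1 (an HSP90 partner), at -0.60 ± 0.26. The Hspb1 difference was the lowest of all 38 members, with a wider error. Its 2 WT arrays disagreed, at -0.92 and 0.54, and its Y136F arrays were at -1.13, -0.92 and -1.76. The lower WT array thus all but touched the Y136F arrays. The adjusted p-values of Hspb1, Hsph1 and Chordc1 were 0.17, 0.171 and 0.256. Hsp90ab1, the constitutive cytosolic HSP90, differed by -0.36 ± 0.20, Hsp90aa1, its stress-inducible relative, by -0.33 ± 0.22, and Hspa8, the constitutive HSP70, by -0.24 ± 0.20. The mitochondrial pair Hspd1 and Hspe1 differed by -0.32 ± 0.16 and -0.28 ± 0.14. Hspa4 and Bag3 were the only members above 0, at 0.17 and 0.16, and Hsf1, the regulator of the heat shock response, differed by -0.04 ± 0.12 (adjusted p 0.89).

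**Figure D4:**
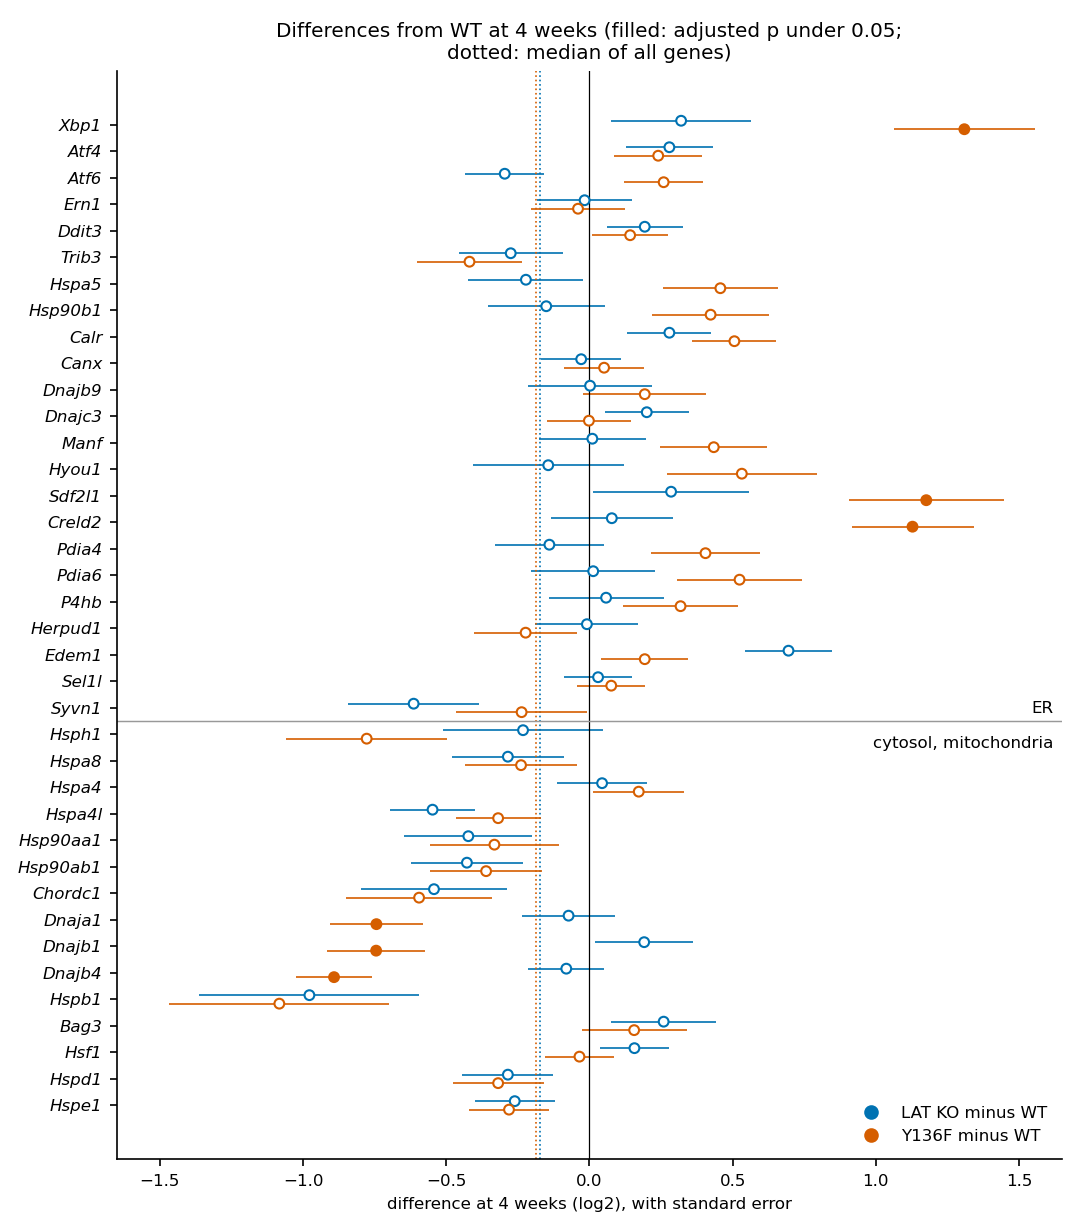
Differences from WT at 4 weeks (log2, with the limma standard error) of the 38 members, blue for LAT KO and orange for Y136F, filled where the adjusted p was under 0.05, with dotted lines at the median of all genes. Xbp1 (1.31), Sdf2l1 (1.18), Creld2 (1.13), Dnaja1 (-0.74), Dnajb1 (-0.75) and Dnajb4 (-0.89) are filled for Y136F, and no point is filled for LAT KO.

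Scaling moved the zero of this comparison. The median of all genes was -0.19 with the 75th percentile, -0.06 after quantile normalization and -0.05 in the deposited series matrix. The ER median stayed at 0.26 to 0.27 under these and the cytosolic median moved from -0.33 to -0.21 and -0.22, so both medians kept their side of the median of all genes. All 6 calls lay on 3 slides that each held 1 array of either group. Within those slides the difference was 1.08 to 1.45 for Xbp1, 0.97 to 1.33 for Sdf2l1 and 0.91 to 1.43 for Creld2, and -0.94 to -0.80 for Dnajb4, -0.84 to -0.59 for Dnajb1 and -0.90 to -0.67 for Dnaja1.

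Sex and genotype cannot be told apart at 4 weeks from these 2 groups alone, since the Y136F mice were female and the WT mice male. With the labelled sex as a term, estimated from the 1-week groups, none of the 6 calls remained, at differences of 0.87 for Xbp1 (adjusted p 0.407), 0.93 for Sdf2l1 (0.486), 0.84 for Creld2 (0.362), -0.96 for Dnajb4 (0.0507), -0.995 for Dnajb1 (0.109) and -0.78 for Dnaja1 (0.217). That term rested on the WT and LAT KO arrays of 1 week, including LAT KO replicate 1, whose sex-linked genes went against its label. The ER median was 0.07 with that term and 0.26 without, and the cytosolic median -0.49 and -0.33. When the 2 LAT KO arrays with contradicted labels were also left out, an alternative chosen after the data were seen, Xbp1 (1.18, adjusted p 0.00887), Sdf2l1 (1.21, 0.0188), Creld2 (1.03, 0.0433) and Dnajb4 (-0.88, 0.0303) passed, and Dnajb1 (-0.90, 0.0774) and Dnaja1 (-0.63, 0.18) did not. Without these 2 arrays and with no term for sex, 5 ER members rose and 4 cytosolic members fell. Over the single leave-outs the ER count ran from 2 to 5, with 5 without LAT KO replicate 1 of 1 week, and the cytosolic count from 1 to 4, with 1 without WT replicate 3 or Y136F replicate 1 of 4 weeks.

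Other gene groups moved in the same arrays. Of 24 proliferation genes, 16 rose and none fell in Y136F at 4 weeks, and their mean deviation was 1.05 to 1.17 per array against -0.22 to -0.10 in WT. Of 9 plasma cell markers, Jchain (3.19), Prdm1 (1.20), Mzb1 (1.15) and Ell2 (0.91) rose and Irf4 fell by 1.05. Sdc1 and Tnfrsf17 differed by 0.005 and 0.06 (limma adjusted p 0.994 and 0.932). The list median was 0.83, with 7 of 9 positive and 6 at an unadjusted limma p under 0.05. The mean deviation of that list was 0.59 to 1.28 in Y136F and -0.01 to 0.33 in WT. None of 12 B cell or 11 measured myeloid markers passed (1 and 4 at an unadjusted limma p under 0.05), and their mean deviations were -0.07 to 0.68 and -0.19 to 0.59 in Y136F against 0.13 to 0.52 and -0.08 to 0.28 in WT. Of 9 NK cell and cytotoxic markers, Gzma (6.64) and Eomes (2.62) rose and Prf1 fell by 0.58, with list means of 0.90 to 1.04 in Y136F and -0.21 to -0.08 in WT. Among naive CD4 T cell markers, Cd5 rose (0.65) and Ccr7 fell by 1.36. Of 14 genes of handling and early response, Jun (1.90) and Jund (0.79) rose, while the inducible HSP70 genes Hspa1a and Hspa1b differed by -0.96 and -0.91 without passing (adjusted p 0.508 and 0.104). The part of these changes in the chaperone results was not tested, and in such bulk RNA fewer cells of a type and less RNA per cell cannot be told apart, nor can more.

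Between 1 and 4 weeks of tamoxifen, Y136F cells, all from female mice at both times, gained ER transcripts. In this comparison 5 ER members rose and none fell, while 4.21% of all genes rose and 3.45% fell (7.66% in either direction). Creld2 rose by 1.32 ± 0.21 (2.5-fold, limma adjusted p 0.000925), Xbp1 by 1.22 ± 0.25 (0.00495), Sdf2l1 by 1.12 ± 0.27 (0.0167), Hsp90b1 by 0.81 ± 0.20 (0.0215) and Atf6 by 0.69 ± 0.14 (0.00487). Only the last pair was not already called against WT.

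Hsp90b1 was at 3.35, 3.40 and 3.43 in Y136F at 1 week and at 4.44, 4.14 and 4.01 at 4 weeks. WT gave 3.38, 3.11 and 3.47 and then 3.85, 3.85 and 3.62, and LAT KO gave 3.82, 2.97 and 3.12 and then 3.89, 3.26 and 3.72. WT arrays thus also lay higher at 4 weeks, by 0.45 ± 0.20 (adjusted p 0.244). Atf6, the membrane-bound sensor and transcription factor, was at -0.66, -0.68 and -0.84 and then -0.17, 0.08 and 0.00 in Y136F. In WT it was at -0.62, -0.41 and -0.54 and then -0.45, -0.04 and -0.38, and in LAT KO at -0.66 and -0.72 and then -0.56, -0.64 and -0.55. The highest WT array of 4 weeks lay within the range of the Y136F arrays, and all LAT KO arrays lay below them.

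Of the 23 ER members, 19 had a positive difference between the times in Y136F, with a median of 0.38, against 0.13 over all genes. For 15 the 4-week arrays lay wholly above the 1-week arrays, against 21.7% of all genes, and for 3 (Dnajc3, Edem1 and Herpud1) wholly below, against 15.5%. Hyou1 (0.87 ± 0.26) and Syvn1 (0.75 ± 0.23) came next, with adjusted p-values of 0.0507 and 0.0553. The other groups moved here too: 18 of 24 proliferation, 5 of 9 plasma cell, 5 of 9 NK cell and 2 of 11 myeloid markers rose, and 1 NK cell marker fell. Of 12 naive CD4 T cell markers, 1 rose and 3 fell. The part of these groups in the ER rises was not tested. In the cytosol Dnajb4 fell by 0.63 ± 0.13 (1.55-fold, adjusted p 0.00667) and no member rose. The cytosolic median was 0.21, with 9 of 15 positive. Dnajb1 differed by -0.49 ± 0.17 (adjusted p 0.0871) and Dnaja1 by -0.18 ± 0.16. Without a single array, the ER count ranged from 3 to 7, with 3 left without Y136F replicate 1 or 2 of 4 weeks. Hsp90b1 lost its call without any Y136F replicate of 1 week or replicate 1 or 2 of 4 weeks (adjusted p 0.0573 to 0.109), and Sdf2l1 without Y136F replicate 2 of 1 week or replicate 1 or 2 of 4 weeks (0.0525 to 0.0706). With slide as a fixed term, where both times of Y136F met on 1 slide, 1 ER member and no cytosolic member passed; on that slide the difference was 1.38 for Xbp1, 1.17 for Creld2, 1.49 for Sdf2l1, 0.75 for Hsp90b1, 0.76 for Atf6 and -0.77 for Dnajb4.

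WT and LAT KO cells gave no called member between the times, and no gene of the whole array was called in either (0% of 31556 by limma). Without the 2 LAT KO arrays whose labels were contradicted, 43 genes rose and 124 fell in WT and 24 rose and 1 fell in LAT KO, none of them a member, and the ER median of LAT KO went from 0.14 to 0.42. At an unadjusted p under 0.05, 11 of 38 members differed in WT (9 higher and 2 lower at 4 weeks), beside 19.35% of all genes, and none in LAT KO, beside 0.5863%. The 4-week arrays lay wholly above the 1-week arrays for 10 members in WT, beside 8.72% of all genes, and for 3 in LAT KO, beside 1.72%. These 3 included Atf6 with 2 LAT KO arrays of 1 week, while the shares count only genes measured on every array of both groups. The leading members by p in WT were Edem1, lower by 0.60 on the log2 scale at 4 weeks (adjusted p 0.124), and Hsp90ab1, higher by 0.64 (0.153). The cytosolic median of WT changed sign with the scaling, from 0.21 with the 75th percentile to -0.01 after quantile normalization and -0.04 in the series matrix.

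At 1 week no member passed the test between Y136F and WT, where 0.00317% of all genes rose and 0.0127% fell (0.0158% in either direction). Every Y136F array lay above every WT array for 6 ER and 0 cytosolic members, beside 4.46% of all genes, and below for 2 and 4, beside 6.19%. At an unadjusted p under 0.05, 2 ER members were higher and 2 cytosolic members lower, beside 6.044% of all genes. Hsph1 had by far the largest difference, at 1.20, 1.86 and 1.93 in Y136F against 3.07, 2.94 and 3.46 in WT and 3.35, 2.02 and 2.39 in LAT KO. Its difference from WT was -1.495 ± 0.28, with an unadjusted limma p of 5.03e-05 and an adjusted p of 0.107, and it passed (0.0189) without LAT KO replicate 1 of 1 week. At 4 weeks Hsph1 was at 2.30, 2.37 and 2.27 in Y136F, 2.82, 3.29 and 3.15 in WT and 2.62, 2.66 and 3.28 in LAT KO. Y136F arrays lay below WT arrays at both times. Ddit3 (0.41 ± 0.13), Hspa5 (0.44 ± 0.20) and Syvn1 (-0.45 ± 0.23) led the ER members at 1 week and Hspa4l (-0.56 ± 0.15) and Bag3 (-0.34 ± 0.18) followed Hsph1 in the cytosol, with adjusted p-values from 0.277 to 0.879. Of the 15 cytosolic members 13 were negative, with a median of -0.18 against -0.12 for all genes.

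Averaged over both times, 5 cytosolic members fell in Y136F relative to WT and 1 ER member rose, beside 1.22% of all genes that rose and 0.542% that fell (1.76% in either direction). Hsph1 fell by 1.14 ± 0.20 (2.20-fold, limma adjusted p 0.0061), Dnajb1 by 0.52 ± 0.12 (0.0329), Dnaja1 by 0.48 ± 0.11 (0.0401), Dnajb4 by 0.47 ± 0.09 (0.0158) and Hspa4l by 0.44 ± 0.11 (0.0387). Sdf2l1 rose by 0.78 ± 0.19 (0.047). These averages use the same arrays as the comparisons at each time. The calls of Hsph1 and Dnajb4 were kept without any single array (highest adjusted p 0.0242 and 0.0468), while those of Dnaja1, Dnajb1, Hspa4l and Sdf2l1 were lost in 10 to 13 of the 18 leave-outs, with adjusted p-values up to 0.124. The cytosolic count was 2 or 3 without any single WT or Y136F array. The ER count was 0 without any Y136F or 4-week WT array, WT replicate 2 or 3 of 1 week or LAT KO replicate 3 of 4 weeks, and 2, 3 and 5 without WT replicate 1, LAT KO replicate 3 and LAT KO replicate 1 of 1 week. With labelled sex as a term none of the 6 passed, also without the 2 LAT KO arrays for the cytosolic members; Sdf2l1 passed in the latter fit (0.80, 0.0433). The differences themselves with sex as a term were -1.09 ± 0.29 for Hsph1, -0.69 ± 0.16 for Dnajb1, -0.52 ± 0.13 for Dnajb4, -0.505 ± 0.16 for Dnaja1, -0.46 ± 0.15 for Hspa4l and 0.61 ± 0.27 for Sdf2l1, with larger errors than without it (adjusted p 0.178 to 0.865). The cytosolic median was -0.37 with the term and -0.23 without, and the ER median 0.01 and 0.17, while the median of all genes was -0.003 and -0.15.

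Hspa4l, an HSP110 relative, was lower than WT in both mutants at both times. It was at -0.04, -0.06 and -0.17 in WT at 1 week, -0.47, -0.64 and -0.48 in LAT KO and -0.75, -0.53 and -0.68 in Y136F. At 4 weeks it was at 0.06, -0.06 and -0.10 in WT, -0.89, -0.57 and -0.28 in LAT KO and -0.31, -0.24 and -0.51 in Y136F. In all 4 comparisons every mutant array lay below every WT array. The share of all genes with that pattern was 2.76% for LAT KO and 6.19% for Y136F at 1 week, and 13.8% and 16.7% at 4 weeks. None of the 4 comparisons passed alone (adjusted p 0.223 to 1), and the averaged difference of LAT KO was -0.50 ± 0.11 with an adjusted p of 0.0553. The mutants share the WT arrays, so these comparisons are not independent.

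Loss of LAT gave no called member against WT, at 1 week, at 4 weeks or averaged over both. Few genes were called there at all, 0.019% at 1 week, 0.0982% at 4 weeks (0.057% higher and 0.0412% lower) and 0.314% for the average. At 4 weeks the LAT KO arrays lay wholly above WT for 5 ER members, beside 9.38% of all genes, and wholly below for 3 ER and 7 cytosolic members, beside 13.8%. These 7 included Hspb1 with 2 WT arrays, while the shares count only genes measured on every array of both groups. At an unadjusted p under 0.05, 2 members differed at 1 week, 7 at 4 weeks (1 higher and 6 lower) and 7 in the average, beside 2.868%, 10.96% and 7.113% of all genes. At 4 weeks Edem1, a lectin that sends glycoproteins to degradation, was at 1.43, 1.66 and 1.36 in LAT KO against 0.81, 0.78 and 0.77 in WT and 0.77, 0.99 and 1.18 in Y136F. All LAT KO arrays lay above WT, by 0.70 ± 0.15 with an adjusted p of 0.11, where 1-week WT arrays had been at 1.73, 1.19 and 1.25. Syvn1 (-0.61 ± 0.23) and Atf6 (-0.30 ± 0.14) were the next ER members by p, with adjusted p-values of 0.376 and 0.448. A second probe of each went the other way, at 0.53 for Syvn1 and 0.09 for Atf6. In the cytosol Hspb1 (-0.98 ± 0.38) and Hsp90ab1 (-0.43 ± 0.20) followed Hspa4l (-0.55 ± 0.15), but Hsp90ab1 turned to 0.05 after quantile normalization and 0.06 in the series matrix. A second Hsp90ab1 probe gave 0.39. The Hspb1 difference used 2 WT arrays, at -0.92 and 0.54, and ran from -1.71 to -0.25 over the single leave-outs.

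At 1 week the leading LAT KO differences from WT were those of Ddit3 (0.33 ± 0.13), Herpud1 (-0.37 ± 0.18) and Calr (0.25 ± 0.15) in the ER and of Hspa4l (-0.44 ± 0.15), Hsph1 (-0.57 ± 0.28) and Hspa4 (-0.26 ± 0.16) in the cytosol. All had an adjusted p of 1. The ER median was -0.05 at 1 week and 0.01 at 4 weeks, the latter of either sign under other scalings. The cytosolic median was -0.11 and -0.26, against -0.05 and -0.17 for all genes, and at 4 weeks it shrank to -0.08 after quantile normalization and -0.05 in the series matrix. Without the 2 LAT KO arrays whose labels were contradicted, the ER median was -0.14 at 1 week, with 20 of 23 negative, and 0.08 at 4 weeks, and the cytosolic median was -0.24 and -0.145, against 0.03 and -0.11 for all genes. No member was called against WT in that fit either.

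The mutants were also compared with each other. At 4 weeks, where 1.04% of all genes were higher and 2.32% lower in LAT KO than in Y136F (3.37% in either direction), 3 ER members were lower and 3 cytosolic members higher. Xbp1 (-0.99 ± 0.25, limma adjusted p 0.0312), Creld2 (-1.05 ± 0.21, 0.00769) and Atf6 (-0.56 ± 0.14, 0.0323) were the lower ones. Dnajb1 (0.94 ± 0.17, 0.00376), Dnajb4 (0.81 ± 0.13, 0.00178) and Dnaja1 (0.67 ± 0.16, 0.0258) were the higher ones. This comparison shares the Y136F arrays with that of Y136F and WT, so both carry the same high and low values. Here too LAT KO was male by label and Y136F female. With labelled sex as a term, only Dnajb1 kept its call (1.19 ± 0.24, adjusted p 0.0345). The others were at -0.55 ± 0.34 for Xbp1 (0.447), -0.76 ± 0.30 for Creld2 (0.273), -0.53 ± 0.25 for Atf6 (0.347), 0.88 ± 0.20 for Dnajb4 (0.0551) and 0.71 ± 0.24 for Dnaja1 (0.202), and the ER median went from -0.26 to -0.04, while that of all genes went from 0.03 to -0.16. With the 2 LAT KO arrays also left out, Dnajb1 again was the only one of the 6 to pass (1.14, adjusted p 0.0414). Dnajb1 and Dnajb4 kept their call without any single array, while Creld2 lost it without LAT KO replicate 2 or Y136F replicate 1 (adjusted p 0.0601 to 0.0674). Dnaja1 lost it without any of the 6 arrays but Y136F replicate 3 (0.0661 to 0.145), and Xbp1 (0.0706 to 0.132) and Atf6 (0.0505 to 0.161) without any of the 6. The ER count was 0 without LAT KO replicate 2 or Y136F replicate 1, 1 without LAT KO replicate 3 or Y136F replicate 2 or 3, and 5 without LAT KO replicate 1 of 1 week. At 1 week no gene of the array was called between the mutants, and 1 of 38 members, Hsph1, had an unadjusted p under 0.05 in limma, beside 5.712% of all genes, being higher in LAT KO by 0.92 ± 0.28.

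Whether the mutant effects changed between the times was tested directly. The change of the difference between LAT KO and Y136F passed for 1 member, Dnajb4, at 0.86 ± 0.19 (limma adjusted p 0.027), where 1.35% of all genes were called. It was lost without LAT KO replicate 3 of 1 week, LAT KO replicate 2 or 3 of 4 weeks or any Y136F array (adjusted p 0.0517 to 0.0845). The change of the Y136F effect against WT passed for none of 38, where 0.52% of all genes were called. At an unadjusted p under 0.05 it held 6 members, beside 8.705% of all genes. Creld2 (1.34 ± 0.30), Dnajb4 (-0.84 ± 0.19) and Xbp1 (1.31 ± 0.35) came closest, with adjusted p-values of 0.0568, 0.0556 and 0.109. The Y136F effects at the 2 times were thus not shown to differ for any member. The change of the LAT KO effect passed for no gene of the array, with 1 member (Edem1, 0.74 ± 0.22) at an unadjusted p under 0.05.

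Of the regulators of both responses, Xbp1 and Atf6 were called in some comparisons and Atf4, Ern1, Ddit3 and Hsf1 in none. Over the 6 groups, mean scaled signals of Atf4 ran from 2.13 to 2.41, of Ern1 from -0.99 to -0.87 and of Ddit3 from -0.67 to -0.26. Hsf1 ran from 0.74 to 1.05. Over the 14 comparisons, Ddit3 had an unadjusted limma p under 0.05 in 4 and Hsf1 in 1, and Atf4 and Ern1 in none. Ddit3 was higher than WT on every LAT KO array at both times and on every Y136F array at 1 week, with averaged differences of 0.26 ± 0.09 and 0.28 ± 0.09 (adjusted p 0.533 and 0.175).

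Genes of the same pathways outside the 40 were counted in the same fits. Over 8 such lists, 4 of 152 genes rose in Y136F at 4 weeks against WT (2.63%) and 1 fell (0.658%), near the 2.48% and 0.916% of all genes. In Y136F at 4 weeks against WT, 1 of 24 other ER folding enzymes rose, Txndc5 (0.96 ± 0.20, adjusted p 0.00939), a disulfide isomerase. Among 20 translocon, signal peptidase and oligosaccharyl transferase genes 1 rose, Sec11c (1.30 ± 0.25, 0.00497), which cleaves signal peptides, and 1 of 9 further ER stress sensors, Creb3l2 (1.02 ± 0.20, 0.00552), a transcription factor cleaved like ATF6. None of 18 further degradation genes passed (2 at an unadjusted p under 0.05). Medians over the lists were 0.16 for folding enzymes (15 of 24 positive), 0.12 for translocon and related genes (16 of 20), 0.22 for sensors (7 of 9) and 0.185 for degradation genes (14 of 18), against -0.19 for all genes. They were 0.07 for targets of ATF4 and CHOP (15 of 23), -0.14 for cytosolic chaperones (12 of 34), -0.15 for chaperonin and prefoldin (5 of 14) and -0.07 for mitochondrial genes (4 of 10). Of 23 targets of ATF4 and CHOP none rose and Ddit4, an inhibitor of the mTORC1 growth pathway, fell by 0.93 ± 0.20 (0.0109). Of 34 further cytosolic chaperone genes Dnajc7, an HSP70 and HSP90 co-chaperone, rose (1.06 ± 0.21, 0.0063), and none of 14 chaperonin and prefoldin or 10 further mitochondrial genes passed (1 and 1 at an unadjusted p under 0.05).

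Between 1 and 4 weeks 7 of 152 genes of these lists rose in Y136F and 7 fell (4.61% each), beside 4.21% and 3.45% of all genes. In the same lists Y136F cells gained Creb3l2 (1.13), Fkbp11 (1.38), Fkbp2 (0.79), Hspa2 (0.97), Sec11c (0.86), Dnajc7 (0.72) and Dnajb6 (0.59) between 1 and 4 weeks. The falls between the times were those of Hspb11 by 1.16, Kdelr3 by 0.79, Pfdn4 by 0.75, Ddit4 by 0.67, Ahsa2 by 0.55, Sec63 by 0.54 and Stt3b by 0.54. Fkbp11 also stands in the plasma cell list. The Y136F effect on Creb3l2 itself changed between the times (1.48 ± 0.28, adjusted p 0.0192). No gene of these 8 lists passed against WT in LAT KO at either time by limma, with 2 of 151 tested genes at an unadjusted p under 0.05 at 1 week and 14 of 152 at 4 weeks, beside 2.868% and 10.96% of all genes.

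Called ER members were found with and without the ER stress element in the promoter window. In Y136F at 4 weeks against WT, the 8 members with a match had a median difference of 0.44 (-0.24 to 1.13, 6 positive), and the 12 other measured ER members with a promoter had 0.19 (-0.42 to 1.31, 9 positive). Among the former 1 was called, Creld2, and among the latter 2, Xbp1 and Sdf2l1. Among the cytosolic and mitochondrial genes, the 4 with a heat shock element had a median of -0.46 and the 7 without had -0.74. The 3 HSP40 genes that fell were among the latter.

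Other probes of the members mostly gave the same picture. The second Dnajb4 probe fell further at 4 weeks (-1.47 against -0.89 in the probe used), both further Dnaja1 probes were at -0.82 and -0.89, and the second Dnajb1 probe at -0.73. The second Hsp90b1 probe gained 0.74 between the times in Y136F and the second Atf6 probe 0.98, and the latter was 0.84 above WT at 4 weeks where the probe used gave 0.26. Probes disagreed for Syvn1 (0.62 against -0.24 in the probe used, Y136F against WT at 4 weeks), Hsp90ab1 (0.10 against -0.36) and Pdia6 (-0.04 and 0.41 against 0.52). Signs also differed for Edem1 (-0.06 and 0.02 against 0.19) and Dnajb9 (0.11 and -0.02 against 0.19). The same held for Hspa4 (-0.01 and 0.25 against 0.17) and Dnajc3 (0.15, 0.03 and 0.06 against -0.002). Between the times in Y136F the further Edem1 probes gave 0.21 and -0.40 against -0.425. For LAT KO against WT at 4 weeks they gave 0.23 and 0.72 against 0.695. Xbp1, Sdf2l1 and Creld2 each rest on 1 probe.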

How the data were processed

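RNA of 18 mice, 3 in each of 6 groups, was measured on single-colour Agilent mouse arrays. Scanner intensity was read out with Agilent Feature Extraction 10.5.1.1, per the file headers; the submitters' processing notes name Feature Extraction 10.5 and limma. The deposited signal used here is a processed intensity, already corrected for background by that program. The deposited series matrix holds log2 values and served as an alternative; its normalization is not given in the sources used here.

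Each array's 75th percentile over 43379 non-control spots was subtracted from the log2 intensity, outlier spots were left out and spots of a probe averaged. Symbols came by accession from a RefSeq table (GRCm38.p6), which named 24844 of 41174 probes (17178 genes); since the design refers to another build, no gene coordinates are given. Probes well above background on fewer than 3 arrays were dropped and the brightest probe of a gene was kept, which left 31622 genes and unnamed sequences (17060 named). Precision is limited by how many arrays there are. The p-values set each difference against a spread shared over all 6 groups, which limma draws toward that of genes of like intensity.

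Tests used limma 3.58.1 (R 4.3.3; helper packages data.table, version 1.17.8, and statmod 1.5.0) with a mean per group over 18 arrays, an intensity trend, 12 residual degrees of freedom, two-sided p-values and Benjamini-Hochberg adjustment over all genes of each of 14 comparisons, at a threshold of 0.05. Members called in any comparison are named with all values; of the others, the 3 ER and 3 cytosolic ones of smallest p in each mutant comparison with WT, always the regulators, and of related lists the called genes; further names are examples chosen after their values were seen. Members, lists and tests were chosen with earlier results of these data known. The method was tested on simulated data. Alternatives were normexp correction (offset 50, on the median intensity), quantile normalization, the series matrix, other filter, probe and outlier rules, slide as fixed or random term, sex, a replicate block, the percent of spots well above background, fewer groups, no trend, array weights, females only and left-out arrays; sex together with 2 left-out arrays was added after the data were seen. Replicate numbers were not used as pairs in the main fit. A marker gene of naive T cells is not reported here. Figures were drawn with matplotlib 3.10.9 in Python 3.11.15.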

Additional observations from a re-analysis of the deposited data

Results flagged for a closer look

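The difference between LAT KO and Y136F changed between 1 and 4 weeks for Dnajb4, an HSP40 co-chaperone, by 0.86 ± 0.19 on the log2 scale (limma adjusted p 0.027 in the direct test of the change); it was the only member of 38 to pass that test, and 9 of the 18 single leave-outs lost it (adjusted p up to 0.0845).

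Hyou1, the HSP110 relative of the ER lumen, lay below WT on every Y136F array at 1 week (difference -0.38 ± 0.26) and above WT on every Y136F array at 4 weeks (0.53 ± 0.26). Its scaled signals at 1 week were -0.01, 0.09 and -0.25 in Y136F and 0.09, 0.27 and 0.60 in WT, so the groups all but touched. At 4 weeks they were 0.85, 0.60 and 0.99 in Y136F and 0.46, 0.33 and 0.06 in WT. Neither difference passed (adjusted p 0.89 and 0.328), and the change itself, 0.91 ± 0.37, had an unadjusted limma p of 0.0248 and an adjusted p of 0.425.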

How the results depend on the processing

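Of 1523 single-member values under the alternatives, 1341 kept direction and side of the threshold, 172 kept direction but lost the call, 8 gained it and 2 turned: Hsp90ab1 in LAT KO against WT at 4 weeks became 0.048 after quantile normalization and 0.064 in the series matrix. Counts of called members that moved follow, with the ER count first; causes were not tested unless fewer arrays or genes entered. In Y136F against WT at 4 weeks (main counts 3 higher, 3 lower), sex as a term gave 0 and 0 and array weights 7 and 5 (with 1 ER member lower), sex without the 2 LAT KO arrays gave 1 cytosolic member, leaving out those arrays alone gave 5 ER members, and single leave-outs gave 2 to 5 and 1 to 4. Averaged over both times (main 1 and 5), ER members higher numbered 0 with sex, slide as a fixed term, no filter, mean of probes, outliers kept, no trend or the percent of spots as a term, 2 after quantile normalization or with slide as a random term, 4 with fewer groups, 5 without the 2 LAT KO arrays, 8 (with 2 lower) with array weights and 0 to 5 over leave-outs; cytosolic members lower numbered 0 with sex in either form, 2 with the mean of probes, no trend or the replicate block, 3 with normexp or the series matrix and 2 to 5 over leave-outs. In Y136F between the times (main 5 higher, 1 lower), ER rises numbered 1 with slide fixed, 8 without the 2 arrays, 9 with fewer groups, 11 (with 2 lower) with array weights and 3 to 7 over leave-outs; cytosolic falls numbered 0 with slide fixed, 2 with array weights and 1 to 2 over leave-outs, and cytosolic rises 1 with fewer groups or sex without the 2 arrays and 3 with array weights. In LAT KO against Y136F at 4 weeks (main 3 lower, 3 higher), ER members lower numbered 0 with sex in either form, 1 with slide fixed, 6 with array weights and 0 to 5 over leave-outs, ER members higher 1 with array weights or the percent term and 0 to 1 over leave-outs, and cytosolic members higher 1 with sex in either form. For the change of the Y136F effect (main 0 and 0), ER rises numbered 1 with normexp, quantile, the series matrix, the filter on all 18 arrays, slide fixed or random, the replicate block or the percent term, 2 with fewer groups, array weights, without the 2 arrays or with sex besides, and 0 to 2 over leave-outs; cytosolic falls numbered 1 with normexp, the series matrix, the filter on all arrays, slide random, fewer groups, array weights, the percent term or without the 2 arrays, and 0 to 1 over leave-outs. For the change between the mutants (main 0 and 1), ER falls numbered 1 with normexp, quantile, the series matrix or the percent term, 2 with array weights and 0 to 2 over leave-outs; Dnajb4 was lost (0) with the mean of probes, slide fixed, sex in either form or fewer groups, 2 cytosolic members passed with array weights, and leave-outs gave 0 to 1. Where nothing was called, array weights gave 2 ER members lower, 2 higher and 2 cytosolic lower for LAT KO at 4 weeks, 2, 2 and 4 for its average, 1 ER member higher for LAT KO between the times, 1 ER lower and 1 cytosolic higher for WT between the times, and 1 cytosolic lower for Y136F at 1 week. The LAT KO average also gave 1 cytosolic member after quantile normalization or the filter on all arrays and 0 to 1 over leave-outs, and Y136F at 1 week 1 without the 2 arrays and 0 to 1 over leave-outs.

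Over all genes in Y136F against WT at 4 weeks, 781 rose and 289 fell (72.99% of calls up), 49 and 36 with sex (57.65%), 1851 and 2484 with array weights (42.7%), and 373 and 113 with sex without the 2 arrays. Arrays of the same replicate number were no more alike than others in their deviations from group means. Correlations of same-numbered deviations were -0.617 to 0.526 (median -0.054, 45 pairs), against a median of 0.027 for 90 other-numbered pairs. Whether mice were paired in the experiment cannot be told from this. The replicate block gave 769 and 299 calls. With females only, no value exists for WT at 4 weeks. All members were well above background, so signal limited none.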
